A study of Danio rerio with 6 samples.

Results

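Rev-erb and ROR genes encode paired nuclear receptors of the circadian clock. They were taken from the deposited table of tail endothelial cells (ECs) by symbol, as the genes named nr1d followed by a digit, or rora, rorb or rorc with an optional copy letter. Of 10232 genes in the table, 6 matched: the Rev-erb genes nr1d1, nr1d2a, nr1d2b and nr1d4b, and the ROR genes roraa and rorab. RefSeq lists 11 genes of these families under such symbols in zebrafish (GRCz12tu assembly, used for names only). The other 5, nr1d4a, rorb, rorc, rorca and rorcb, were not analysed here. Every listed gene had at least 0.231 CPM in at least 3 libraries, and genes below that floor are not covered.

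The tails, which hold the caudal haematopoietic tissue (CHT), were dissected from zebrafish embryos at 36 h post fertilisation, and GFP-positive cells, around 5000 per sample, were sorted for bulk RNA-sequencing. Control embryos (n = 3 libraries) were flk1:GFP;UAS:DN-bmal1a, and DN-bmal1a embryos (n = 3 libraries) were flk1:GFP;flk1:GAL4;UAS:DN-bmal1a, where flk1 is an older name of the vascular receptor gene kdrl. Both groups therefore carried the reporter and the UAS transgene, and they differed in the GAL4 driver, a yeast transcription factor that switches on the UAS transgene wherever the kdrl promoter is active. The transgene encodes a Bmal1a protein without its transactivation domain. Each library came from a pool of embryos, and the methods describe embryos kept in light/dark cycles and treated with phenylthiourea against pigmentation. The time of day of collection is not given in the sources used here. Libraries of a group are taken as biological replicates from separate pools. The p-values measure the spread between these libraries only.

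In vertebrates, the Bmal1:Clock dimer activates Rev-erb genes through E-box elements. Rev-erb proteins bind haem and recruit a corepressor complex with the histone deacetylase HDAC3 to response elements in target genes, and the Bmal1 gene is among these targets. ROR proteins bind the same elements and activate transcription, so that both families set the level of Bmal1 in an accessory loop of the clock.

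Levels are in CPM, counts of reads scaled by edgeR to a common library size, and whole reads could be recovered from them. Libraries had between 26161915 and 55004237 reads, and DN-bmal1a replicate 2 had the fewest. In that library 1760 genes (17.2%) had no read, against 34 to 865 genes in the other libraries. The gene whose sequence the transgene carries, bmal1a, is listed as arntl1a, and counts per gene do not separate transgene from endogenous reads. Its highest control, at 20.6 CPM, was below its lowest DN-bmal1a library, at 22.1 CPM, and such a separation upward was found in 7% of all genes. All 11 listed endothelial markers of 15 chosen were read in every library, kdrl, cdh5 and fli1a among them, but their sum was 7598 to 8946 CPM in the controls and 4338 to 5504 CPM in DN-bmal1a. Markers of other cell types were also present in both groups. The 8 erythroid markers summed to 540 to 1788 CPM in the controls and 2306 to 3535 CPM in DN-bmal1a, the 7 neural markers to 121 to 148 and 51.2 to 56.7 CPM, and the 4 neural crest markers to 8.09 to 37.6 and 0 to 21.6 CPM. Sums of neural crest, muscle, myeloid and blood progenitor markers overlapped between the groups. So did those of the 5 notochord and mesenchyme markers, at 213 to 399 and 168 to 242 CPM. The 7 skin markers summed to 3617 to 3712 and 2544 to 3244 CPM. In bulk samples, fewer cells of a type and less RNA per cell cannot be told apart.

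The first question was which Rev-erb and ROR genes differ when DN-bmal1a is expressed in ECs. nr1d2a was nearly absent from DN-bmal1a ECs and nr1d2b was at 47.4% of its control mean, with no overlap between the groups for either gene. The remaining Rev-erb genes, nr1d1 and nr1d4b, and both ROR genes overlapped between the groups. The limma test was run on log2(CPM + 1), and a call required an adjusted p, over all genes, of less than 0.05 together with a fold of 2 or more. By this rule 0 of the 6 genes were called, where 1 gene (0.00977%) of all 10232 was. At an unadjusted p under 0.05, 2 of the 6 were lower and 0 higher, against 8.12% of all genes lower and 3.1% higher. The groups did not overlap in the same 2 genes, both lower, against 10.7% of all genes. All 6 genes had log2 fold changes below 0 as deposited, as had 58.1% of all genes, but after quantile normalisation, which gives each library the same distribution of values, nr1d1, nr1d4b and roraa were above 0. The median of the 6 was -0.89 against -0.13 for all genes, -0.27 against 0.037 after quantile normalisation, and -0.36 against -0.063 without DN-bmal1a replicate 2. On the recovered reads, edgeR's exact test and DESeq2 each called nr1d2a alone of the 6, where they called 0.342% and 1.64% of all genes as lower. edgeR's quasi-likelihood test called 0 of the 6 and 0% of all genes, with nr1d2a and nr1d2b at an unadjusted p under 0.05.

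**Figure D1:**
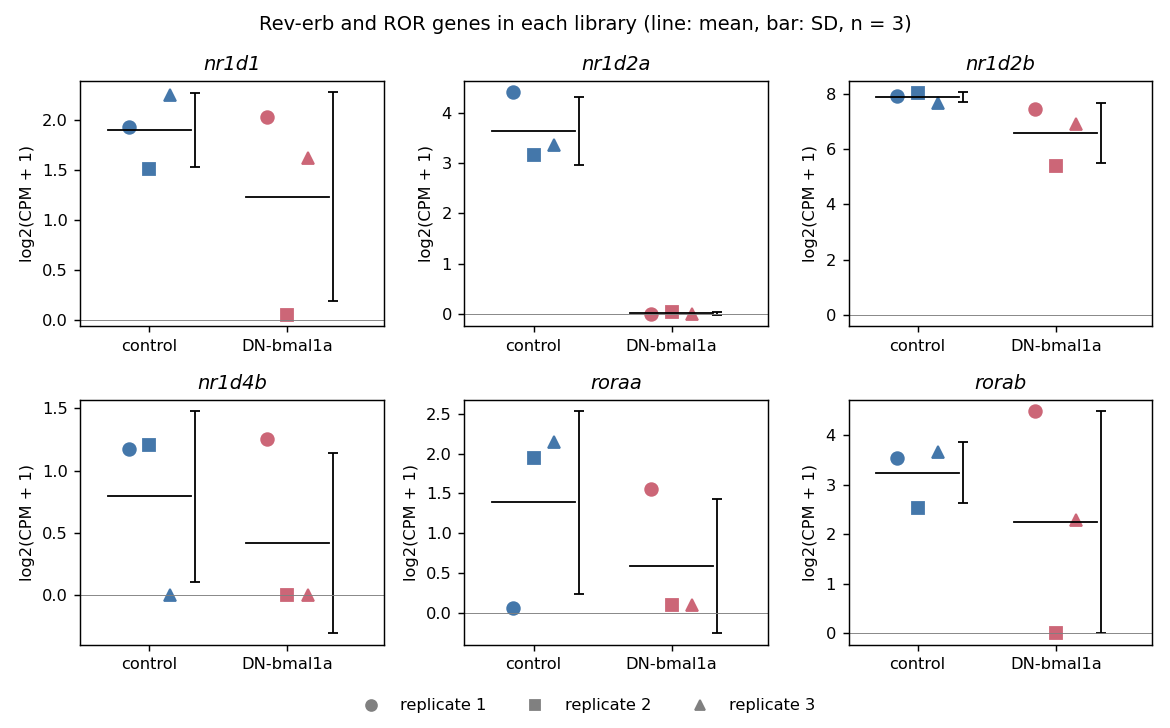
Level of each Rev-erb and ROR gene, as log2(CPM + 1) on the vertical axis of each panel (scales differ), in the 3 control and 3 DN-bmal1a libraries. Points are libraries, with the symbol giving the replicate number, lines are group means and bars are the SD (n = 3). The groups are separate for nr1d2a and nr1d2b and overlap for the other 4 genes.

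nr1d2a encodes a Rev-erb beta protein. Control replicates 1 to 3 yielded 838, 295 and 469 reads of it, equal to 20.2, 7.90 and 9.33 CPM. In DN-bmal1a, replicate 2 held 1 read, equal to 0.037 CPM, and replicates 1 and 3 held 0 reads. Each control thus held at least 295 reads, whereas a single read was found across the 3 DN-bmal1a libraries. Scaled for depth, the ratio of the 1602 control reads to that read was 1573, with a 95% exact interval from 282 to 62163 that covers the counting of reads only and not the sampling of molecules before amplification. The log2 fold change on log2(CPM + 1) was -3.63 (95% interval -5.15 to -2.10), and its size is set by the added 1, since complete loss would give -3.64 on this scale. The limma p was 0.000381, the rank 21 among 10232 genes, and the adjusted p was 0.185. The two-sided exact permutation test gave p = 0.1, the smallest value that 3 libraries against 3 allow. On the recovered reads, DESeq2 gave an adjusted p of 9.32e-08, the exact test of edgeR 0.0248 and its quasi-likelihood test 0.378.

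A gene with no reads in DN-bmal1a can enter the table only if all 3 controls reach the floor, and the reverse holds for a gene with no reads in the controls. Among the 7748 genes with at least 100 reads in every control, 25 (0.323%) had at most 1 read in every DN-bmal1a library, nr1d2a among them. Among the 6714 genes with at least 100 reads in every DN-bmal1a library, 0 (0%) had at most 1 read in every control. This reverse count had little room to be above 0. Only 34 genes had no read in control replicate 2, against 722, 1760 and 865 genes in DN-bmal1a replicates 1 to 3. The 25 and the 0 are therefore not a like comparison. Without DN-bmal1a replicate 2, the library with the most unread genes, the count of 25 became 45. The 25 genes also include zic2a, a neural marker, dct, a pigment cell marker, and pdgfra, a mesenchymal marker. Some other markers on the same lists were still read in DN-bmal1a. In replicates 1 to 3, the neural marker nova2 was at 21.2, 24.5 and 12.2 CPM (log2 fold change -0.54). The mesenchymal marker col1a2 was at 214, 204 and 159 CPM (-0.41), and tfap2a, a neural crest marker, at 3.82, 0 and 9.72 CPM (-1.08). The neural markers snap25a and gfap were at 2.80, 0 and 0 CPM and at 0, 0.88 and 0 CPM. Log2 fold changes were below 0 in 6 of 7 neural, 4 of 4 neural crest and 5 of 5 notochord and mesenchyme markers, against 58.1% of all genes. Of these, 3 neural, 1 neural crest and 1 notochord and mesenchyme marker were lower without overlap, against 10.7% of all genes. Whether nr1d2a reads in the controls came from ECs or from cells of these types was not tested. The read limits were chosen after the values of nr1d2a had been seen.

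**Figure D2:**
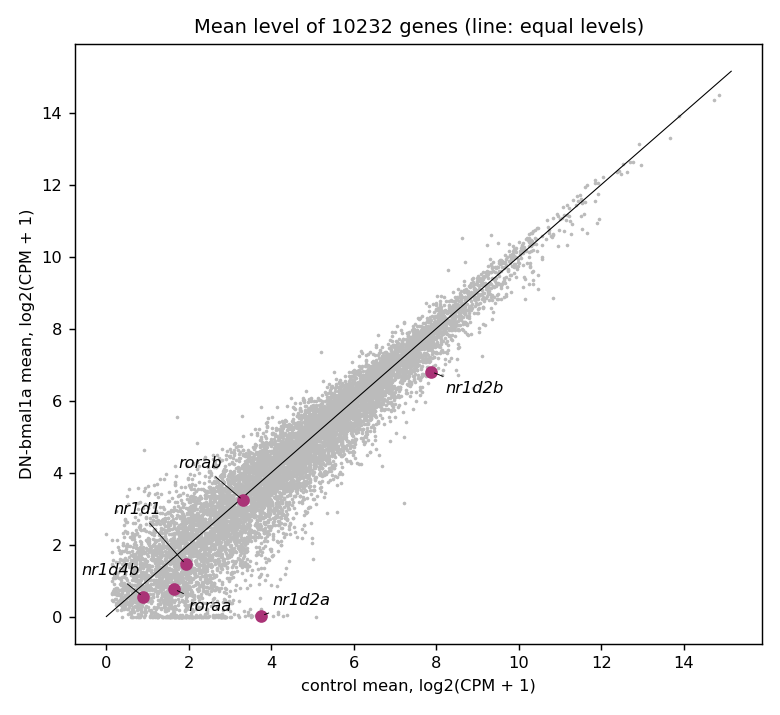
Mean level of each of 10232 genes in the controls (horizontal axis) and in DN-bmal1a (vertical axis), both as log2(CPM + 1), with the line marking equal levels. The 6 Rev-erb and ROR genes are in purple. nr1d2a lies on the lower edge, where DN-bmal1a had 0.012 CPM on average against 12.5 CPM in the controls.

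nr1d2b is the second zebrafish copy of the Rev-erb beta gene. Control replicates 1 to 3 held 9910, 9694 and 10176 reads of it, equal to 239, 259 and 202 CPM. DN-bmal1a replicates 1 to 3 held 7506, 1110 and 6627 reads, equal to 174, 40.7 and 118 CPM. Every DN-bmal1a library lay below every control, with DN-bmal1a replicate 2 far below the other two. The means were 234 ± 29.0 CPM (SD, n = 3) and 111 ± 66.9 CPM (SD, n = 3), and the log2 fold change was -1.29 (standard error 0.44, limma p = 0.0160, adjusted p = 0.357, exact permutation p = 0.1). Without DN-bmal1a replicate 2 the log2 fold change was -0.70 (limma adjusted p = 0.412).

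The summed endothelial markers were lower in the same libraries, at 58.0% of the control mean, with all 11 markers at log2 fold changes below 0 as deposited and 10 of them after rescaling the libraries to the same sum. In an addition made after the values were seen, nr1d2b was therefore expressed per 1000 CPM of these markers in the same library. The control ratios were 31.5, 30.4 and 22.6, and those of DN-bmal1a were 31.6, 9.38 and 25.1. On this scale the groups overlapped, with DN-bmal1a replicate 1 about level with the highest control. The mean ratio in DN-bmal1a was 78.1% of that in the controls (two-sided exact permutation p = 0.7). Leaving out stab2, the marker with the lowest fold change, gave 68.2%, again with overlapping groups (exact permutation p = 0.2). DN-bmal1a replicate 1, at 36.4, was then above control replicate 3 only, with the controls at 38.8, 40.8 and 28.5. nr1d2a stayed separate on the same scale, with control ratios of 2.66, 0.926 and 1.04 against DN-bmal1a ratios of 0, 0.00845 and 0. With 1 read across the DN-bmal1a libraries, its ratios stay near 0 whatever the markers, so this scale cannot test nr1d2a. The markers may themselves respond to DN-bmal1a, which was not tested.

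Relative to its own paralogue, nr1d2a was also lower in DN-bmal1a. For each 1000 reads of nr1d2b control replicates 1 to 3 held 84.6, 30.4 and 46.1 reads of nr1d2a. The DN-bmal1a replicates held 0, 0.901 and 0, where 3 reads of nr1d2a would have given 0.40 in replicate 1 and 0.453 in replicate 3. The groups did not overlap, and gene length cancels in this comparison between libraries (exact permutation p = 0.1). On log2(CPM + 1), the log2 ratio of nr1d2a to nr1d2b was -4.22 ± 0.69 (SD, n = 3) in the controls and -6.56 ± 1.1 (SD, n = 3) in DN-bmal1a (exact permutation p = 0.1). The change of this log2 ratio, -2.33, depends on the added constant, with -5.40 for a constant of 0.1 and 0.067, of the opposite sign, for 10. Over the 15 pairs among the 6 genes, the adjusted p of this difference was 0.375. The groups were separate in 4 of the 15 pairs, each of them a ratio of nr1d2a to another gene: nr1d1, nr1d2b, nr1d4b and roraa. These ratios, and the reads per 1000 above, all rest on the same 1 read of nr1d2a in DN-bmal1a. They add no separate support.

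nr1d1 encodes Rev-erb alpha, the family member best known from mammalian liver and brain clocks. Control replicates 1 to 3 held 116, 69 and 189 reads of it, equal to 2.80, 1.85 and 3.76 CPM. The DN-bmal1a replicates held 133, 1 and 116 reads, equal to 3.08, 0.037 and 2.06 CPM. DN-bmal1a replicates 1 and 3 lay within the range of the controls, and replicate 2 held a single read. The log2 fold change was -0.66 (95% interval -2.31 to 0.98, limma adjusted p = 0.766), and -0.074 without DN-bmal1a replicate 2. Complete loss of nr1d1 would give -1.90 on this scale, a value inside the interval, although 2 of the 3 DN-bmal1a libraries held at least 116 reads. For nr1d1 the ratio to nr1d2a differed between the groups without overlap, which rests on the near absence of nr1d2a in DN-bmal1a. The log2 ratios were -1.75 ± 0.69 (SD, n = 3) in the controls and 1.21 ± 1.07 (SD, n = 3) in DN-bmal1a (exact permutation p = 0.1, adjusted p = 0.375 over the 15 pairs).

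nr1d4b, a further Rev-erb gene of fish, was read in only 3 of the 6 libraries. Its reads numbered 52 in control replicate 1, 49 in control replicate 2 and 60 in DN-bmal1a replicate 1, equal to 1.26, 1.31 and 1.39 CPM, and 0 elsewhere. The 3 libraries with reads were close to each other and belonged to both groups. Its log2 fold change of -0.38 had a 95% interval from -1.76 to 1.01 (limma adjusted p = 0.849). A count of 0 reads allows up to 3 reads, or between 0.0533 and 0.11 CPM in the 3 libraries without reads, for counting error only.

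The ROR genes roraa and rorab are copies of the gene for ROR alpha, an activator with known roles in the cerebellum and in lymphoid cells of mice. Of roraa, control replicates 1 to 3 held 2, 107 and 173 reads, equal to 0.048, 2.86 and 3.44 CPM. The DN-bmal1a replicates held 84, 2 and 4 reads, equal to 1.95, 0.073 and 0.071 CPM. Only control replicates 2 and 3 and DN-bmal1a replicate 1 had more than 4 reads. The log2 fold change was -0.80 (95% interval -2.51 to 0.90, limma adjusted p = 0.717). Of rorab, the controls held 436, 178 and 582 reads, equal to 10.5, 4.76 and 11.6 CPM. The DN-bmal1a replicates held 918, 0 and 217 reads, equal to 21.3, 0 and 3.86 CPM. The highest and the lowest value of rorab among the 6 libraries thus both came from DN-bmal1a. Its means, 8.96 ± 3.67 CPM (SD, n = 3) and 8.37 ± 11.3 CPM (SD, n = 3), were close, and the log2 fold change was -0.98 (95% interval -3.41 to 1.45, limma adjusted p = 0.765). Without DN-bmal1a replicate 2, the fold change of rorab had the opposite sign, 0.14. The intervals of both genes are too wide to show whether ROR expression differs between the groups by a fold of 2, and they include the values that complete loss would give, -1.39 for roraa and -3.24 for rorab.

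**Figure D3:**
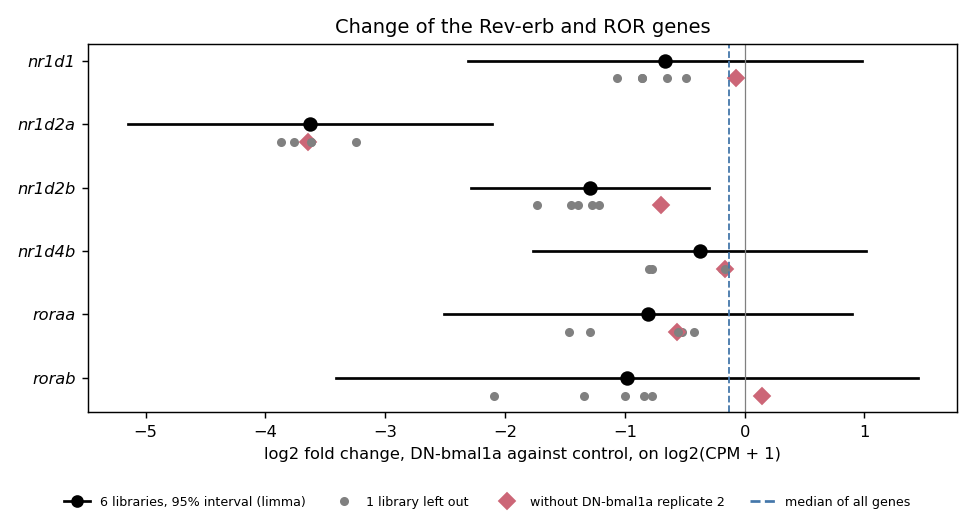
Fold changes between DN-bmal1a and control libraries, in log2 units on log2(CPM + 1) along the horizontal axis, for the 6 genes (black points, all 6 libraries, with limma's 95% intervals). Small points below each are fits with 1 library left out, and diamonds are the fit without DN-bmal1a replicate 2, which brings nr1d1 to -0.074, nr1d2b to -0.70 and rorab to 0.14. The dashed line is the median of all genes, -0.13.

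Replicates of the same group differed widely in 4 of these genes. With 50 or more reads in a library and at most 4 in another library of the same group as the mark, 2 of the 6 genes, nr1d4b and roraa, met it within the controls, against 10.8% of all genes. Within DN-bmal1a, 4 of the 6 met it, nr1d1, nr1d4b, roraa and rorab, against 22.3% of all genes. These are the 4 genes whose groups overlapped. nr1d2a and nr1d2b did not meet it in either group, which their read numbers fix. nr1d2a had at least 295 reads in each control and at most 1 in each DN-bmal1a library. nr1d2b had at least 1110 reads in every library, yet ranged from 40.7 to 174 CPM over DN-bmal1a. The mark was chosen after the values were seen, and genes with few reads meet it more easily.

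By the Pearson correlation of log2(CPM + 1) over the 6 libraries, the genes most like nr1d2a were si:ch73-173h19.3 (r = 0.999), sema5a (r = 0.999) and dck (r = 0.998). sema5a, a semaphorin gene, ranged from 3.45 to 7.70 CPM over the controls and was at 0.093, 0 and 0 CPM in DN-bmal1a replicates 1 to 3. For nr1d2b they were itga6b (r = 0.996), march8 (r = 0.996) and csf3a (r = 0.992), all 3 with no read in DN-bmal1a replicate 2. For nr1d1 they were tpd52l2b (r = 0.995), u2af1 (r = 0.995) and gcnt4a (r = 0.994), each with its lowest value in that library. Among the 6 genes themselves, nr1d1 was most like rorab (r = 0.948), with DN-bmal1a replicate 2 the lowest library for both. Likeness over 6 libraries follows the library and the group that are low, and these correlations are descriptions.

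The next question was whether the partners and known targets of these receptors differed. In the lists of corepressors, coactivators, haem genes, targets and clock genes, limma called no gene. Over all 10232 genes it called 1 (0.00977%), so the lack of calls does not set these lists apart. Of 7 genes of the Rev-erb corepressor complex, 4 had log2 fold changes below 0, as had 58.1% of all genes, and 3 above. At an unadjusted p under 0.05, 0 were lower or higher, against 8.12% and 3.1% of all genes. With 7 genes, a count of 0 cannot be told apart from these shares. Their median was -0.24 against -0.13 for all genes, and it turned to 0.14 without DN-bmal1a replicate 3. hdac3, the deacetylase of the complex, had a log2 fold change of -0.51 (adjusted p = 0.742 in limma) and tbl1xr1b, a subunit of it, of -0.52 (adjusted p = 0.635). The 2 listed ROR coactivators, ncoa2 and kat2b, had log2 fold changes of -0.71 and 0.0024 and overlapped between the groups.

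Genes of haem synthesis and breakdown, which set the supply of the Rev-erb ligand, had higher values more often than lower ones, chiefly through the synthesis genes. Of 14 genes, 10 had log2 fold changes above 0, where 41.9% of all genes did, and the median was 0.71. The 4 below 0 were the synthesis gene fech (-0.25) and the breakdown genes hmox1a (-0.56), hmox2a (-0.059) and blvra (-0.022). The breakdown gene blvrb was at 0.64. The groups did not overlap in 4, all higher, against 7% of all genes. At an unadjusted p under 0.05, 3 were higher, against 3.1% of all genes. These were cpox, urod and alad, enzymes of haem synthesis, with limma adjusted p from 0.332 to 0.438. cpox ranged from 9.50 to 21.6 CPM over the controls and from 27.6 to 70.5 CPM over DN-bmal1a. Of the 8 erythroid markers, 6 had log2 fold changes above 0, the highest being the embryonic globin genes hbbe1.1 at 2.05 and hbae3 at 1.27. One of these markers, alas2, is also among the 14 haem genes. The 2 erythroid markers below 0, gata1a and epb41b, were at -2.31 and -0.34, and the part of erythroid RNA in the haem genes was not tested. alas1, the synthesis enzyme used outside red cells, had a log2 fold change of 0.091 and 0.166 as its standard error.

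Among 17 listed genes known from mammals as targets of Rev-erb or ROR, 13 had log2 fold changes below 0 and 4 above, where 58.1% of all genes were below 0. Their median was -0.37, and it was -0.68 without control replicate 1. The 2 that were lower at an unadjusted p under 0.05, a limit that 8.12% of all genes met downward, were pck1, which encodes a gluconeogenic enzyme, and cry1b, a cryptochrome gene. pck1 ranged from 2.92 to 3.18 CPM over the controls, and 1 read, equal to 0.018 CPM, was found across the DN-bmal1a libraries (limma adjusted p = 0.268). Like nr1d2a, pck1 could be listed only through its controls. For cry1b, control levels of 20.1, 10.2 and 5.29 CPM stood against DN-bmal1a levels of 5.40, 0 and 1.60 CPM, so that DN-bmal1a replicate 1 overlapped the controls (adjusted p = 0.412). The 1 that was higher was arntl1a, whose reads cannot be told apart from those of the transgene. DESeq2 called pck1 (adjusted p = 0.00723), and no gene of this list passed in limma. The other copy of the gene, arntl1b, ranged from 16.0 to 27.5 CPM over the controls and from 11.6 to 36.7 CPM over DN-bmal1a, with overlapping groups (log2 fold change -0.10, adjusted p = 0.952).

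Of the other clock genes, 6 activators, 10 repressors, 9 bZIP output factors and 7 genes of clock protein turnover were listed. In limma, 0 of them passed the thresholds, against 0.00977% of all genes. At an unadjusted p under 0.05, 3 were lower, cry1b, dbpb and hlfb, and 1 was higher, arntl1a. Over all genes, 8.12% were lower and 3.1% higher at this limit. Most of the 17 targets above, cry1b and arntl1a among them, are also in these clock lists, so the counts are not separate. arntl1a reads cannot be told apart from those of the transgene. The bZIP genes, which share clock elements with nr1d1 and nr1d2 in mammals, included dbpb, with control levels of 1.40, 1.1 and 4.99 CPM and 0 reads in the 3 DN-bmal1a libraries (limma adjusted p = 0.367, DESeq2 adjusted p = 0.0333). Like nr1d2a, dbpb could be listed only through its controls. Of the 9 bZIP genes, 2 were lower without overlap, dbpb and tefa, and 0 higher, against 10.7% and 7% of all genes. tefa was at 179, 205 and 201 CPM in the controls against 161, 140 and 149 CPM in DN-bmal1a (log2 fold change -0.38, adjusted p = 0.476). Of the 6 activators, only arntl1a was separate, being higher, and the 7 turnover genes all overlapped. Below 0 were 7 of the 10 repressors (median log2 fold change -0.69) and 7 of the 9 bZIP genes (-0.60). So were 4 of the 6 activators (-0.19) and 5 of the 7 turnover genes (-0.16). For all genes the share was 58.1% and the median -0.13. Without DN-bmal1a replicate 2 the repressor median was -0.12. The repressor gene bhlhe40 had a log2 fold change of -2.10 with overlapping groups (limma adjusted p = 0.539). Among the 10 repressors, cry2a and cry2b, which encode cryptochromes, were higher without overlap and 0 were lower. Such a separation was found upward in 7% and downward in 10.7% of all genes. cry2a ranged from 81.6 to 100.4 CPM over the controls and from 108 to 122 CPM over DN-bmal1a (log2 fold change 0.32, adjusted p = 0.603). For cry2b the log2 fold change was 0.31 (adjusted p = 0.687). hlfb had 83 reads in DN-bmal1a replicate 1 and 0 in the other DN-bmal1a libraries, and overlapped. per2 had overlapping groups, with a log2 fold change of -0.0012.

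The table lists 39 other nuclear receptor genes, with a median log2 fold change of -0.58 against -0.89 for the 6 Rev-erb and ROR genes. This order turned without DN-bmal1a replicate 2, at -0.46 against -0.36, and with a pseudocount of 10, at -0.20 against -0.19. Of the 39, 28 had log2 fold changes below 0, where 58.1% of all genes did. In 9 of the 39 the DN-bmal1a libraries were lower without overlap, against 10.7% of all genes, and 7 were lower at an unadjusted p under 0.05, against 8.12%. The orphan receptor gene nr4a1 was the 1 gene that passed the limma thresholds (log2 fold change -2.50, adjusted p = 0.0144), and it missed them in 5 of the 6 fits with 1 library left out and in edgeR's quasi-likelihood test (adjusted p = 0.0878). nr4a1 was read in every DN-bmal1a library, with at least 68.7 CPM, unlike nr1d2a. The androgen receptor gene ar, like nr1d2a, was nearly without reads in DN-bmal1a and could be listed only through its controls. Its control levels were 8.74, 6.50 and 3.48 CPM and its DN-bmal1a levels 0.046, 0 and 0 CPM (adjusted p = 0.223). nr2f2, a venous identity factor in mice, ranged from 95.1 to 193 CPM over the controls and from 14.3 to 45.1 CPM over DN-bmal1a (adjusted p = 0.223). DESeq2 called nr4a1 (adjusted p = 2.77e-18), ar (adjusted p = 0.000222) and nr2f2 (adjusted p = 0.0117). edgeR's exact test called nr4a1 (adjusted p = 2.18e-13) and nr2f2 (adjusted p = 0.0181) but not ar (adjusted p = 0.196).

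**Figure D4:**
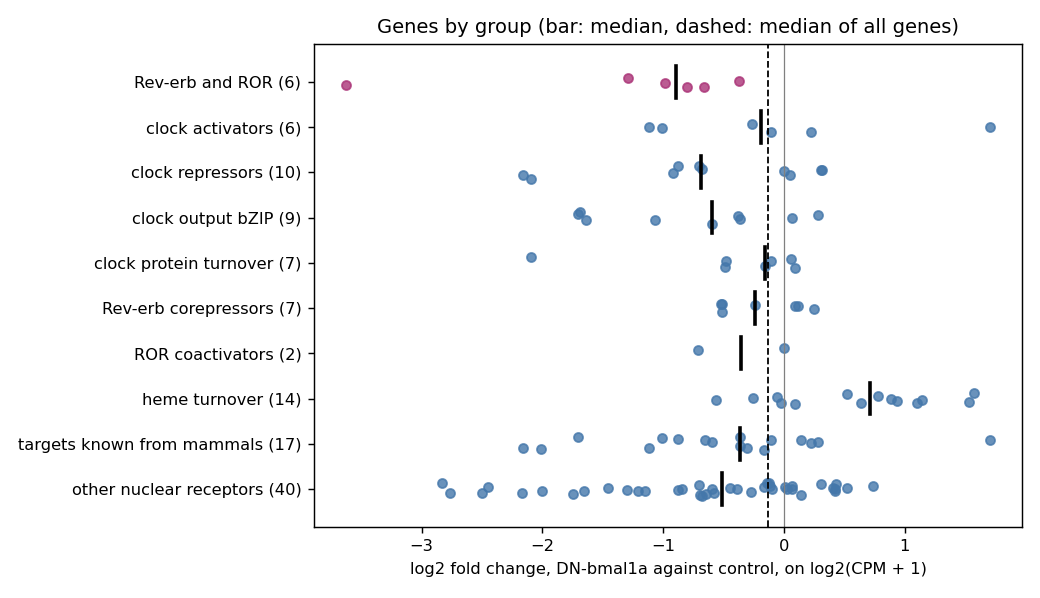
Fold changes between DN-bmal1a and control libraries, in log2 units on log2(CPM + 1) along the horizontal axis, for the 6 Rev-erb and ROR genes (purple) and for the genes of 9 lists (blue), with the number of listed genes in brackets. Bars are list medians and the dashed line is the median of all genes, -0.13. nr1d2a, at -3.63, lies below every other gene shown, and the haem list has a median of 0.71. Most genes of the target list are also shown in the clock lists. The nuclear receptor list includes nr2c2ap, which encodes a receptor-associated protein and is not among the 39.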

How the data were processed

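RNA-sequencing of 6 libraries of sorted tail ECs was analysed, with groups taken from the genotype labels. Per the labels, the authors mapped reads with STAR 2.7.0f to GRCz11 and counted them with HTSeq 0.9.1; the methods name danRer10, and no coordinates were used. They deposited a normalised signal per gene, CPM on TMM library sizes computed with edgeR (version 3.38.4 in the notes), so that column sums differ between libraries. Columns carry the sample titles. All values above 0 (100%) were whole multiples of 1 read within 0.05 reads, and 1 read was worth 0.0178 to 0.0367 CPM. The value was taken as CPM when tests were chosen, and the log scale was kept.

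limma 3.58.1 (trend) in R 4.3.3 was run on log2(CPM + 1) with all 10232 genes and Benjamini-Hochberg adjustment. A call needed an adjusted p under 0.05 and a fold of 2. Single genes had two-sided exact permutation tests. edgeR 4.0.16 and DESeq2 1.42.0 were alternatives on recovered reads. No replicate pair matched within counting error. Tests were tested on simulated data, which did not copy the drops to few reads in single libraries seen here. Named genes were the 6 receptors, arntl1a, per list those called and the 3 lowest p-values, and the 3 most correlated genes. Some of the list genes are not reported here. The genes sema5a, alas1, alas2, arntl1b, per2, hbae3, hbbe1.1, gata1a, epb41b, cry2b, nr2c2ap, zic2a, dct, pdgfra, nova2, col1a2, tfap2a, snap25a, gfap, fech, hmox1a, hmox2a, blvra and blvrb were added after their values were seen. Members and lists were chosen with earlier results of these data known. Gene lengths were not used, so levels are not compared between genes.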

Additional observations from a re-analysis of the deposited data

How the results depend on the processing

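nr1d2a, nr1d2b and rorab were below 0 in all 15 alternatives that kept the 6 libraries. nr1d2a passed the thresholds in edgeR's exact test (-9.96) and DESeq2 (-10.44), where 1 of the 6 genes was called, and in none of the others. Quantile normalisation turned nr1d1 to 0.28, nr1d4b to 0.13 and roraa to 0.11, moved the median of all genes from -0.13 to 0.037, and lowered the share of lower genes at an unadjusted p under 0.05 from 72.4% to 56.2%. A pseudocount of 10, close to the control level of nr1d2a, turned the change of the log2 ratio of nr1d2a to nr1d2b from -2.33 to 0.067, and one of 0.1 gave -5.40. With each library omitted in turn, the values ran from -3.87 to -3.24 for nr1d2a, -1.73 to -0.70 for nr1d2b, -1.06 to -0.074 for nr1d1, -0.79 to -0.17 for nr1d4b, -1.46 to -0.42 for roraa and -2.10 to 0.14 for rorab, with no call, and 2 to 3 genes without overlap. The level of nr1d2b in DN-bmal1a, 47.4% of control, was 78.1% relative to all endothelial markers, 68.2% without stab2 and 64.9% without stab2 and kdrl. The 25 genes with at most 1 read in every DN-bmal1a library were 45 without DN-bmal1a replicate 2. Both were added after seeing the data.

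Over all genes, the count of 1 call was 5 after quantile normalisation, 7 without a trend, 22 with array weights, 38 with edgeR's exact test, 187 with DESeq2, 0 with edgeR's quasi-likelihood test (804 genes had an unadjusted p under 0.05), filtered by filterByExpr or not, and 0 to 1 without 1 library. The cause was not tested. The fit with a replicate block gave 1 call in limma and 0 in the quasi-likelihood test, and none of the 6 receptor genes. nr1d2a had a limma adjusted p of 0.353 with the block. Same-numbered libraries shared only a number, with correlations of their deviations of -0.074, -0.011 and 0.0025. Filters on a mean of 1 and 5 CPM left 5 and 3 of the 6 genes to test. Overlap of groups does not depend on pseudocount or test. nr1d4b had 0 reads in the deepest library of each group and in DN-bmal1a replicate 2, the library with the fewest reads. Whether its zeros depend on depth was not tested. Medians of the 6 genes and of the nuclear receptor list under omitted libraries and a pseudocount of 10 were also added after seeing the data.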
